A study of Mus musculus with 8 samples.

Results

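The expression of 10 genes of the Notch pathway was followed on arrays of control and Zrf1 knockdown neural progenitor-like cells: the receptors Notch1, Notch2 and Notch3, the ligands Dll1, Dll3, Jag1 and Jag2, and the modulators Lfng, Dtx4 and Nrarp. The 10 genes were listed by name, and every non-control probe that carries one of these gene names was kept. That gave 13 probes among the 55681 non-control probes of the array, and 10 gene names among 36373. Notch1, Notch2 and Dll3 had 2 probes each, and the other 7 genes had 1.

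The study profiled mouse embryonic stem cells (ESC) that were driven towards neural progenitor cells (NPC) like the radial glial cells (RGC) of the embryonic brain, and collected them on day 6 of neural induction. Control cells carried the short hairpin RNA shCtrl and knockdown cells carried shZrf1, a hairpin against Zrf1, the gene named Dnajc2 on the array. Both groups went through the same induction, and 4 samples of each were measured. The ESC line, the hairpin sequence and its vector are not named in the sources used here. Total RNA (100 ng per sample) was amplified from its poly(A) end with an oligo-dT primer, labelled with the dye Cy3 and hybridised to an array in 1 colour. The labels do not say whether the 4 samples of a group were separate cultures, so p-values measure only the spread between these samples, which may be technical. The files number the knockdown arrays as 2 pairs and mark 1 array of each pair TR, which the labels do not explain. All 4 were counted as samples, and averaging each pair gave the same number of called genes among the 10, but left too few arrays for the test of gene pairs below to reach its threshold.

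The Notch pathway carries signals between touching cells. A ligand of the Delta or Jagged type on one cell binds a Notch receptor on its neighbour, the receptor is cut by an Adam protease and then by gamma-secretase, and its freed intracellular domain joins the DNA-binding protein Rbpj and a Mastermind coactivator at target genes such as Hes5. In the developing nervous system, young neurons display Dll1 and keep neighbouring radial glial cells in the progenitor state, a process called lateral inhibition.

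Levels are given as the log2 of a probe's signal minus the log2 of the 75th percentile of its own array, so 0 is the brightness of the 75th percentile. A change is the knockdown mean minus the control mean on this scale. A probe's level depends on its sequence as well as on the transcript, so the levels of different probes were not compared. Between 53.4% and 60.3% of the 59305 spots per array were well above background, the 75th percentile signal ranged from 483 to 696 intensity units, and no spot was saturated. The targeted gene, Dnajc2, lay between 1.75 and 2.02 in the 4 control arrays and between -2.53 and -2.08 in the 4 knockdown arrays, a change of -4.19 ± 0.12 (SE, limma adjusted p = 1.38e-07). Over all tested probes, log2 differences between arrays had a standard deviation of 0.901 to 1.00 for arrays of opposite groups and 0.32 to 0.52 for arrays of 1 group. In bulk RNA, fewer cells of a type and less RNA per cell cannot be told apart.

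Of the 10 genes, 8 fell in the knockdown, Jag2 rose, and Notch1 did not pass the test (limma, Benjamini-Hochberg adjusted over all 29090 tested probes, threshold 0.05). The same fit called 57.6% of the 21749 tested genes, 28.5% as lower and 29.1% as higher. The fall reached 2-fold in 5 of the 10 genes (Notch3, Dll1, Dll3, Dtx4 and Nrarp), where 7.46% of all tested genes fell by that much. The control and knockdown arrays did not overlap in 9 of the 10 genes, against 55.0% of all tested genes. The median change was -1.03 over the 10 genes and 0.04 over all tested genes. All 10 genes had a tested probe, so none was lost to the filter on dim probes. Of their 13 probes 11 were tested and 10 were called, where 57.1% of all tested probes were. The 10 genes were chosen with earlier results of these data known, so these counts are only a description.

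**Figure D1:**
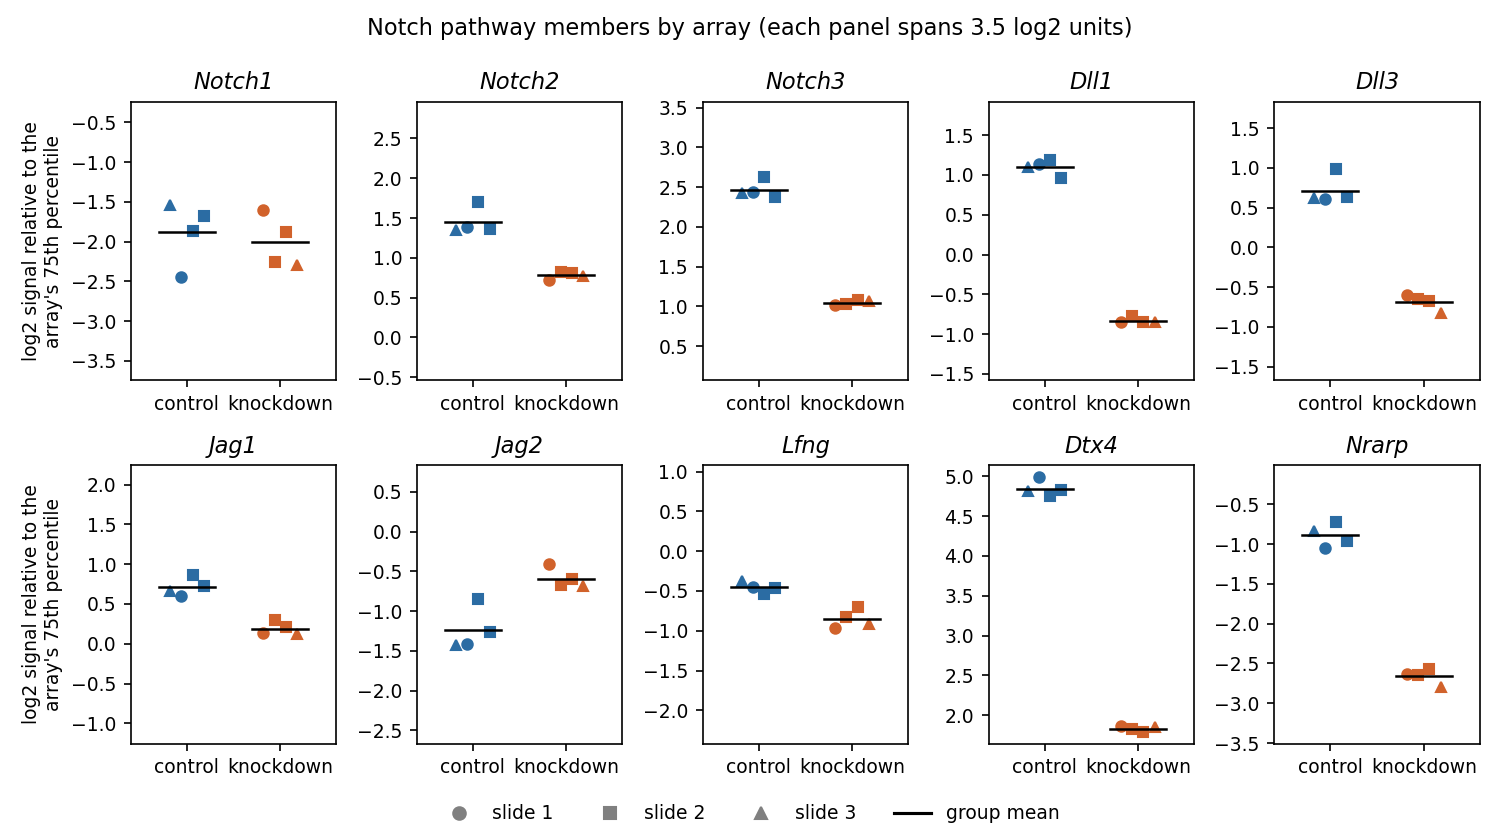
Level of the brightest tested probe of each of the 10 genes on every array, as log2 signal relative to the array's 75th percentile (vertical axis), for the 4 control and the 4 knockdown arrays; marker shapes show the 3 slides and horizontal bars the group means. The groups are separate in every panel but that of Notch1, with the knockdown lower in 8 panels and higher in that of Jag2.

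The probe sequences that decide what can be said of Notch1, Notch2 and Dll3 are given here, because these genes have 2 probes each and only Dll3 gave 2 tested values. All are 60 bases long, taken from the scanner files, whose positions are on the mouse build mm9. The first is the Notch1 probe that was measurable in all arrays (A_55_P2171897, chr2:26319440-26319499, minus strand). The second is the dim Notch2 probe (A_55_P1982793, chr3:97951233-97951292, plus strand). The third is the second Dll3 probe (A_55_P2045208, chr7:29079061-29079120, minus strand).
Notch1 A_55_P2171897: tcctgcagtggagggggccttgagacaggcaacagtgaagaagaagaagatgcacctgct
Notch2 A_55_P1982793: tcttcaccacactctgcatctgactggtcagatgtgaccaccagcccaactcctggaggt
Dll3 A_55_P2045208: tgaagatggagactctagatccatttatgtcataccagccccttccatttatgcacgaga
The files place these probes at base 5898 of the Notch1 transcript, base 7448 of the Notch2 transcript and base 1730 of the Dll3 transcript. Each partner probe lies farther towards the poly(A) end, by 2323 bases for Notch1, 2681 bases for Notch2 and 184 bases for Dll3. Exon and UTR annotation of build mm9 was not used here.

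Among the receptors, Notch3 fell the most, Notch2 fell less, and Notch1 had no change beyond the spread between arrays. Notch3, a receptor with a known role in vascular smooth muscle that neural progenitors also express, has 1 probe (A_51_P220162, chr17:32257848-32257907, minus strand). Its levels were 2.42, 2.44, 2.63 and 2.38 in control arrays 1 to 4 and 1.01, 1.03, 1.08 and 1.07 in knockdown arrays 1 to 4. Every knockdown array was below every control array, and the knockdown arrays lay within a narrow band. The mean went from 2.47 ± 0.11 to 1.05 ± 0.03 (SD, n = 4 each), a change of -1.42 ± 0.07 (SE) or 2.67-fold lower (limma adjusted p = 1.55e-06). The arrays sat on 3 slides that each held both groups, and within slides 1, 2 and 3 the change was -1.42, -1.45 and -1.36. Slides 1 and 3 held 1 array of each group, so their values, here and below, are differences of single arrays.

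Notch2, a receptor of radial glia and of many other progenitors, was read by a bright probe near the transcript's end (A_52_P289213, chr3:97953914-97953973, plus strand). Its levels were 1.35, 1.39, 1.70 and 1.37 in control arrays 1 to 4 and 0.72, 0.83, 0.81 and 0.78 in knockdown arrays 1 to 4. The groups did not overlap, and control array 3 stood above the other control arrays. The mean fell from 1.45 ± 0.17 to 0.78 ± 0.05 (SD, n = 4 each), a change of -0.67 ± 0.09 (SE) or 1.59-fold (limma adjusted p = 0.000332). Within slides 1, 2 and 3 it was -0.67, -0.72 and -0.57.

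The other Notch2 probe, printed above, gave no usable reading of the change. Its levels were -4.15, -4.42, -3.62 and -4.17 in the control arrays and -2.83, -4.39, -3.80 and -3.82 in the knockdown arrays. It was well above background on 2 control and 3 knockdown arrays, so it was not tested, and its groups overlapped. The fall of Notch2 therefore rests on 1 probe.

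Notch1, the receptor most often studied in neural stem cells, was measurable with the probe printed above on all 8 arrays. Its levels were -1.54, -2.45, -1.86 and -1.68 in control arrays 1 to 4 and -1.61, -2.25, -1.88 and -2.29 in knockdown arrays 1 to 4. The groups overlapped over most of their range, and the arrays of 1 group lay farther apart than for any other tested probe of the 10 genes. The change was -0.13 ± 0.23 (SE), with a 95% interval from -0.65 to 0.40 and a limma adjusted p of 0.676. A fall as large as that of Notch3 lies outside this interval, whereas one the size of the Lfng change reported below does not. Within the slides the change was 0.84, -0.30 and -0.75, and so had no steady direction. The other Notch1 probe (A_55_P2047168, chr2:26314630-26314689, minus strand) was not well above background on any of the 8 arrays, with levels between -6.26 and -4.21, and was not tested.

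The ligands split by direction, with Dll1, Dll3 and Jag1 lower and Jag2 higher in the knockdown. Dll1, the Delta ligand of young neurons and of the presomitic mesoderm, had the largest fall of the 4. Its probe (A_51_P306017, chr17:15504623-15504682, minus strand) is printed 10 times on each array. The spot averages were 1.10, 1.14, 1.19 and 0.96 in control arrays 1 to 4 and -0.85, -0.78, -0.85 and -0.85 in knockdown arrays 1 to 4. All knockdown arrays lay well under all control arrays, and both groups were tight. The mean fell from 1.10 ± 0.10 to -0.83 ± 0.04 (SD, n = 4 each), a change of -1.93 ± 0.07 (SE) or 3.80-fold (limma adjusted p = 3.09e-07). The slides gave -1.99, -1.88 and -1.95. The spots of 1 array had a standard deviation of 0.0345 to 0.0503 in the control arrays and 0.0703 to 0.0878 in the knockdown arrays, far less than the difference between groups. One of the 10 spots on knockdown array 4 was an outlier by the scanner's flag, so 9 entered its average.

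Dll3, a divergent Delta protein that acts mainly inside the cell that makes it and does not activate receptors on neighbours, fell with both probes. The brighter probe (A_51_P504494, chr7:29078763-29078822, minus strand) read 0.62, 0.61, 0.99 and 0.63 in control arrays 1 to 4 and -0.60, -0.65, -0.67 and -0.83 in knockdown arrays 1 to 4. The groups were separate, with control array 3 above the other control arrays. The change was -1.40 ± 0.10 (SE) or 2.64-fold lower (limma adjusted p = 1.06e-05), and -1.21, -1.47 and -1.45 within slides 1, 2 and 3. The second probe, printed above, read 0.51, 0.58, 0.53 and 0.35 in the control arrays and -0.47, -0.64, -0.75 and -0.30 in the knockdown arrays. It too showed no overlap, and its change was -1.03 ± 0.11 (SE) or 2.04-fold lower (limma adjusted p = 8.0e-05). The changes of the 2 Dll3 probes differed by -0.37, and the per-array differences of the groups overlapped (exact two-sided permutation test, p = 0.0571).

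Jag1, a Jagged-type ligand that is expressed by neural progenitors and by endothelial and smooth muscle cells, fell by less. Its probe (A_52_P634090, chr2:136907433-136907492, minus strand) read 0.67, 0.60, 0.86 and 0.73 in control arrays 1 to 4 and 0.13, 0.30, 0.20 and 0.13 in knockdown arrays 1 to 4. The knockdown arrays all lay under the control arrays, with the nearest pair about 0.31 apart. The mean went from 0.72 ± 0.11 to 0.19 ± 0.08 (SD, n = 4 each), a change of -0.53 ± 0.08 (SE) or 1.44-fold lower (limma adjusted p = 0.000582). The slides gave -0.47, -0.54 and -0.54.

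Jag2, the other Jagged-type ligand, was the 1 gene of the 10 that rose. Its probe (A_51_P451338, chr12:114146887-114146946, minus strand) read -1.42, -1.41, -0.85 and -1.26 in control arrays 1 to 4 and -0.41, -0.67, -0.60 and -0.69 in knockdown arrays 1 to 4. The groups did not overlap, but control array 3 and the lowest knockdown array were only 0.16 apart. The mean rose from -1.24 ± 0.27 to -0.59 ± 0.13 (SD, n = 4 each), a change of 0.65 ± 0.14 (SE) or 1.56-fold (limma adjusted p = 0.00415). Within the slides it was 1.00, 0.42 and 0.73. With each array scaled by its median in place of the 75th percentile the rise was 0.47 and no longer passed the test (limma adjusted p = 0.0622). That scaling moved the median change of all tested genes by -0.17, and of the genes called, 50.5% of 12524 rose under the 75th percentile and 37.3% of 11101 under the median.

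**Figure D2:**
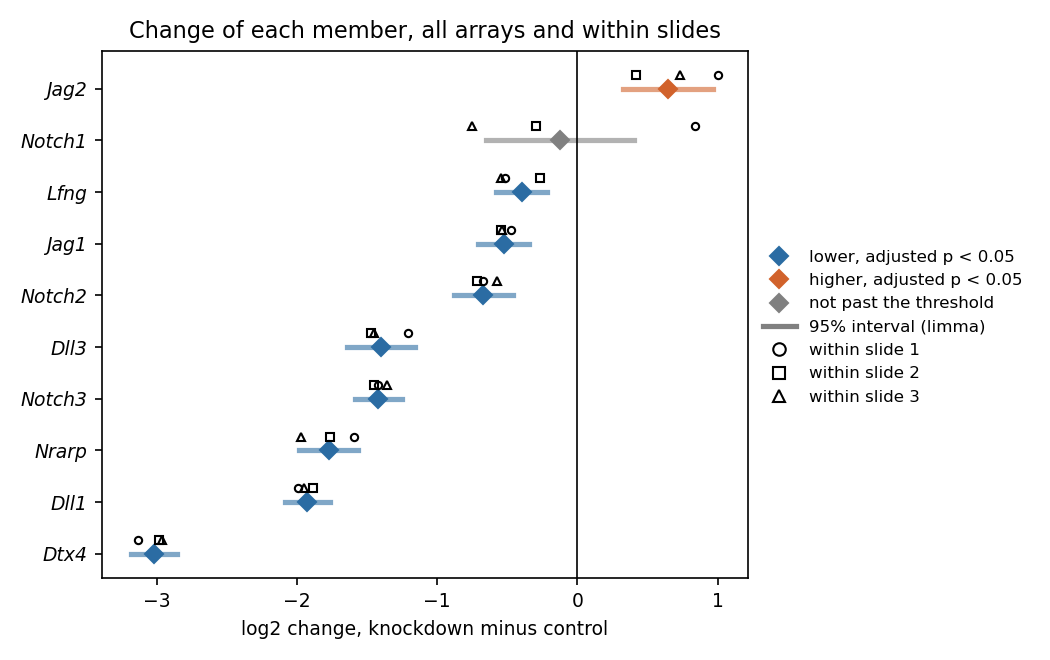
Change of the brightest tested probe of each of the 10 genes (knockdown minus control, log2 units, horizontal axis), with the 95% interval from limma as a bar and the values within each of the 3 slides as small marks. Dtx4 lies farthest to the left at -3.02, Jag2 alone lies to the right with its whole interval above 0, and the interval of Notch1 crosses 0.

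The modulators all fell, over a wide range of sizes. Dtx4, a Deltex-family ubiquitin ligase that takes part in the trafficking and turnover of Notch receptors, had the largest change of the 10 genes. Its probe (A_51_P144349, chr19:12540935-12540994, minus strand) read 4.81, 4.998, 4.75 and 4.83 in control arrays 1 to 4 and 1.87, 1.82, 1.78 and 1.85 in knockdown arrays 1 to 4. The lowest control array was 2.88 above the highest knockdown array. The mean went from 4.85 ± 0.11 to 1.83 ± 0.04 (SD, n = 4 each), a change of -3.02 ± 0.07 (SE) or 8.09-fold lower (limma adjusted p = 7.22e-08). The slides gave -3.13, -2.98 and -2.96.

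Nrarp, a small ankyrin repeat protein that is itself a Notch target and limits the signal by binding the receptor's intracellular domain, fell as well. Its probe (A_51_P504354, chr2:25038038-25038097, plus strand) read -0.83, -1.04, -0.72 and -0.96 in control arrays 1 to 4 and -2.64, -2.64, -2.57 and -2.80 in knockdown arrays 1 to 4. No array of 1 group came near the other group. The mean went from -0.89 ± 0.14 to -2.66 ± 0.10 (SD, n = 4 each), a change of -1.77 ± 0.09 (SE) or 3.42-fold lower (limma adjusted p = 1.62e-06). The slides gave -1.60, -1.76 and -1.97. The size of the fall depended on the background correction and normalization: it was -1.17 with normexp and quantile normalization, still past the threshold. The authors' values also gave -1.17, but they are nearly the same values (r = 0.99999 on each array) and so no separate check.

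Lfng, the Golgi enzyme lunatic fringe, adds N-acetylglucosamine to fucose on Notch receptors and so changes which ligands they answer to. Its probe (A_52_P187940, chr5:141091224-141091283, plus strand) read -0.37, -0.45, -0.54 and -0.46 in control arrays 1 to 4 and -0.97, -0.83, -0.70 and -0.92 in knockdown arrays 1 to 4. The groups were separate by 0.16 between the nearest arrays. The mean went from -0.45 ± 0.07 to -0.85 ± 0.12 (SD, n = 4 each), a change of -0.40 ± 0.08 (SE) or 1.32-fold lower, the smallest of the called changes (limma adjusted p = 0.0026). The slides gave -0.52, -0.27 and -0.54.

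Receptors and ligands were next compared with one another within each array, where scaling between arrays plays no part. For each of 9 pairs the difference between both log2 signals was taken per array and compared between the groups by an exact two-sided permutation test over arrays, whose smallest possible p is 0.0286. In 8 of the 9 pairs the groups did not overlap, each with the smallest possible p, and the adjusted p was 0.0321. The pairs share genes and so are not independent, and taken singly 55.0% of all tested genes did not overlap. The share among all gene pairs was not computed, so the count says little about these genes in particular. Notch3 fell by more than Notch2, and the difference of their changes was 0.75. This difference had a standard deviation across arrays of 0.06 in the control and 0.04 in the knockdown group, and its groups did not overlap. The changes of Notch1 and Notch3 differed by 1.29, whereas Notch1 and Notch2 could not be separated (difference 0.54, exact permutation p = 0.171, groups overlapping).

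Among the ligands, all 6 pairs changed unequally, in the order Dll1, Dll3, Jag1, Jag2 from the most to the least lowered. Dll1 changed by -0.53 relative to Dll3, by -1.40 relative to Jag1 and by -2.57 relative to Jag2. Dll3 changed by -0.87 relative to Jag1 and by -2.04 relative to Jag2, and Jag1 changed by -1.17 relative to Jag2. Both Delta-type ligands thus changed by more than both Jagged-type ligands on the same arrays. The second Dll3 probe fell by less than the brighter one used here, and the changes of both probes differed by -0.37. The part of the probes in the order of the ligands was not tested.

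**Figure D3:**
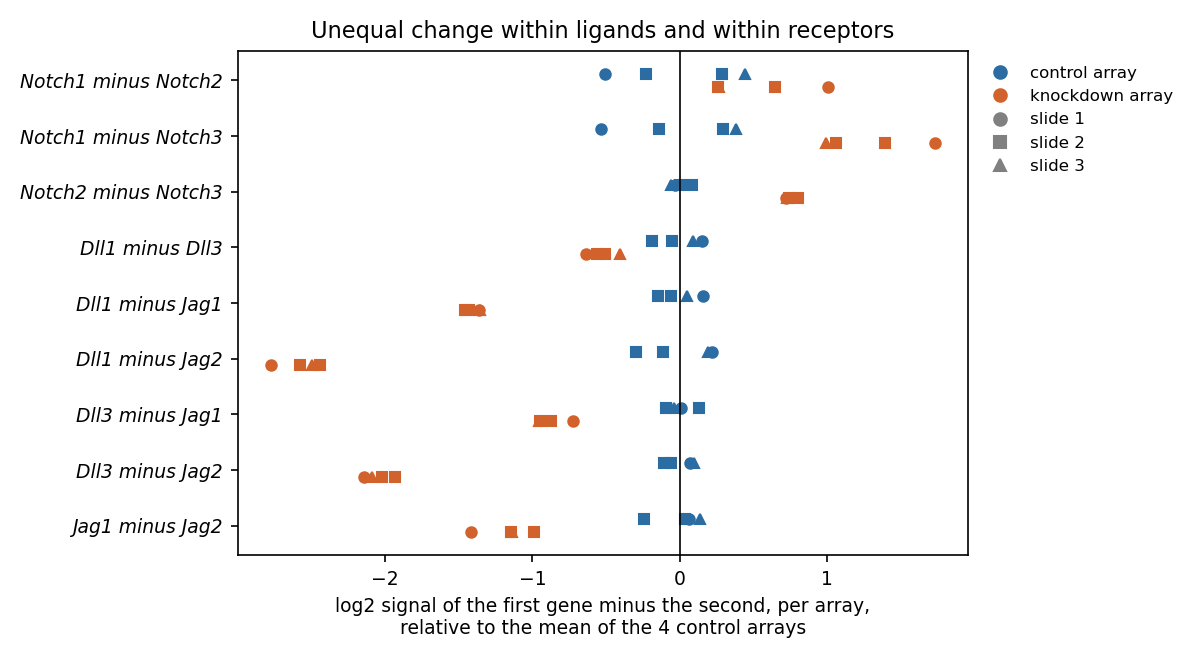
Difference between the log2 signals of 2 receptors or 2 ligands on each array (log2 units, horizontal axis), with each pair's control mean set to 0, for the control and the knockdown arrays. The arrays of both groups are apart in 8 of the 9 pairs, and only Notch1 minus Notch2 shows overlapping groups.

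A promoter is shown for the one gene of the set whose entry held the searched motif. The RefSeq promoter table (build GRCm38.p6) gives 250 bases before to 50 bases after a gene's start, and 9 of the 10 genes had an entry, with 10 promoters in all. These were searched on both strands for TGGGAA, the core letters bound by Rbpj, and for GTGGGAA, which contains it. Of the 9 genes, 1 held either of them, and among all 32851 promoters 25.6% held the shorter and 6.38% the longer motif. The Lfng promoter (chr5:140607091-140607390, plus strand) has the 6 letters at 135 and 108 bases before the start, the first on the opposite strand, and they are in capitals.
Lfng promoter: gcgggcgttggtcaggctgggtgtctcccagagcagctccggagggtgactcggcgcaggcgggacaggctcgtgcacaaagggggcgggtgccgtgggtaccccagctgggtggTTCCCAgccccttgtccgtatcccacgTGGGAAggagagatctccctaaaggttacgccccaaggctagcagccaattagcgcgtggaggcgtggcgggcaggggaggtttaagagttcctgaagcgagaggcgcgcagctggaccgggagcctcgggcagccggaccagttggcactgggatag
A match of letters is a description of the sequence, and binding was not measured.

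The remaining genes of the pathway were counted from a list of 54 genes ordered by role, of which 53 were on the array and 48 were tested. Of the 48, 20 fell, 13 rose and 15 did not pass the test, and the median change was -0.07. Among all tested genes 28.5% fell and 29.1% rose, the shares to set beside the counts by role and marker list below. Maml2, Hes3 and Fabp7 passed the filter on dim probes through the control group, where they are high. With only probes well above background on all 8 arrays, the list had 17 lower and 13 higher. By comparison the 10 genes had 8 lower and 1 higher. Both lists were chosen with earlier results of these data known, so this comparison is only a description. With median scaling the list had 20 lower and 7 higher, and the rises that no longer passed included those of Eogt, Numb, Rbpj, Cir1 and Hey1. A fall of at least 2-fold was called for 11 genes of the list, Maml2, Hes3 and Fabp7 among them, and a rise of at least 2-fold for 2. Of all tested genes, 7.46% fell and 10.4% rose by that much.

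Among the other receptors and ligands, 1 of 5 tested genes fell and 2 rose. Notch4, the receptor best known from endothelium, fell by 2.77 on the log2 scale (limma adjusted p = 8.97e-07). Dll4, the Delta ligand of sprouting vessels, rose by 2.25 ± 0.31 (SE, limma adjusted p = 0.000338). Dlk2, a Delta-like protein without the domain that binds Notch, rose by 0.83, and its dimmer probe read 0.36 with a limma adjusted p of 0.103. Of the 4 tested genes for ligand uptake, the ubiquitin ligases Neurl1b and Mib1 fell by 0.57 and 0.46 and their relative Mib2 rose by 0.70.

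The glycosylation enzymes moved mostly one way, with 4 of 5 lower. The glucosyltransferase Poglut1 changed by -1.10, the O-fucosyltransferase Pofut1 by -0.98 and the fringe enzyme Mfng by -0.90, whereas Eogt, which adds N-acetylglucosamine directly, rose by 0.41. A second, dim Pofut1 probe read -0.29 and did not pass the test. Lfng, the fringe enzyme described above, also fell.

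Of the 8 tested genes for receptor cleavage, only the protease Adam10 fell, by 1.13 on the log2 scale (limma adjusted p = 2.56e-06). The gamma-secretase subunits Aph1b and Aph1a rose by 0.97 and 0.51. The second Aph1a probe went the other way and was called lower at -0.68, so the direction of Aph1a depends on the probe. Among the inhibitors and turnover genes, 3 of 8 fell and 2 rose. The Deltex-family gene Dtx3l changed by -1.42, and the ubiquitin ligases Fbxw7 and Itch by -0.36 and -0.29. Dtx1, a Deltex like Dtx4, rose by 1.37 ± 0.07 (SE, limma adjusted p = 1.91e-06), and the endocytic inhibitor Numb rose by 0.23. The Deltex genes Dtx4 and Dtx1 thus moved in opposite directions.

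In the nuclear complex and its corepressors, 5 of 12 tested genes fell and 2 rose. The corepressor Ctbp1 changed by -1.32, the acetyltransferase Kat2b by -1.13, and the coactivator Maml2, which no knockdown array showed well above background, was at least 1.57-fold lower. Such a bound sets the control mean against the dimmest signal still well above background on each knockdown array. Rbpj rose by 0.47 and its corepressor Cir1 by 0.33.

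Of the genes listed as targets, 4 of 6 tested fell and 2 rose, while Hes1, Hey2 and Heyl were not tested. Whether Notch signalling controls each of them in these cells was not tested, so the count is no measure of that signalling. Hes5, the main Hes target in neural progenitors, changed by -4.02 (limma adjusted p = 5.03e-08). Hes3 was at least 15.3-fold and Fabp7 at least 109-fold lower, both without a knockdown array well above background. Hes7 rose by 0.93 and Hey1 by 0.37. Hes3 and Fabp7 passed the filter on dim probes through the control group, where they are high, so their falls add nothing to the count. The other tested genes of this list were divided, with Hes5 and Hes6 (-1.44) lower and Hes7 and Hey1 higher.

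**Figure D4:**
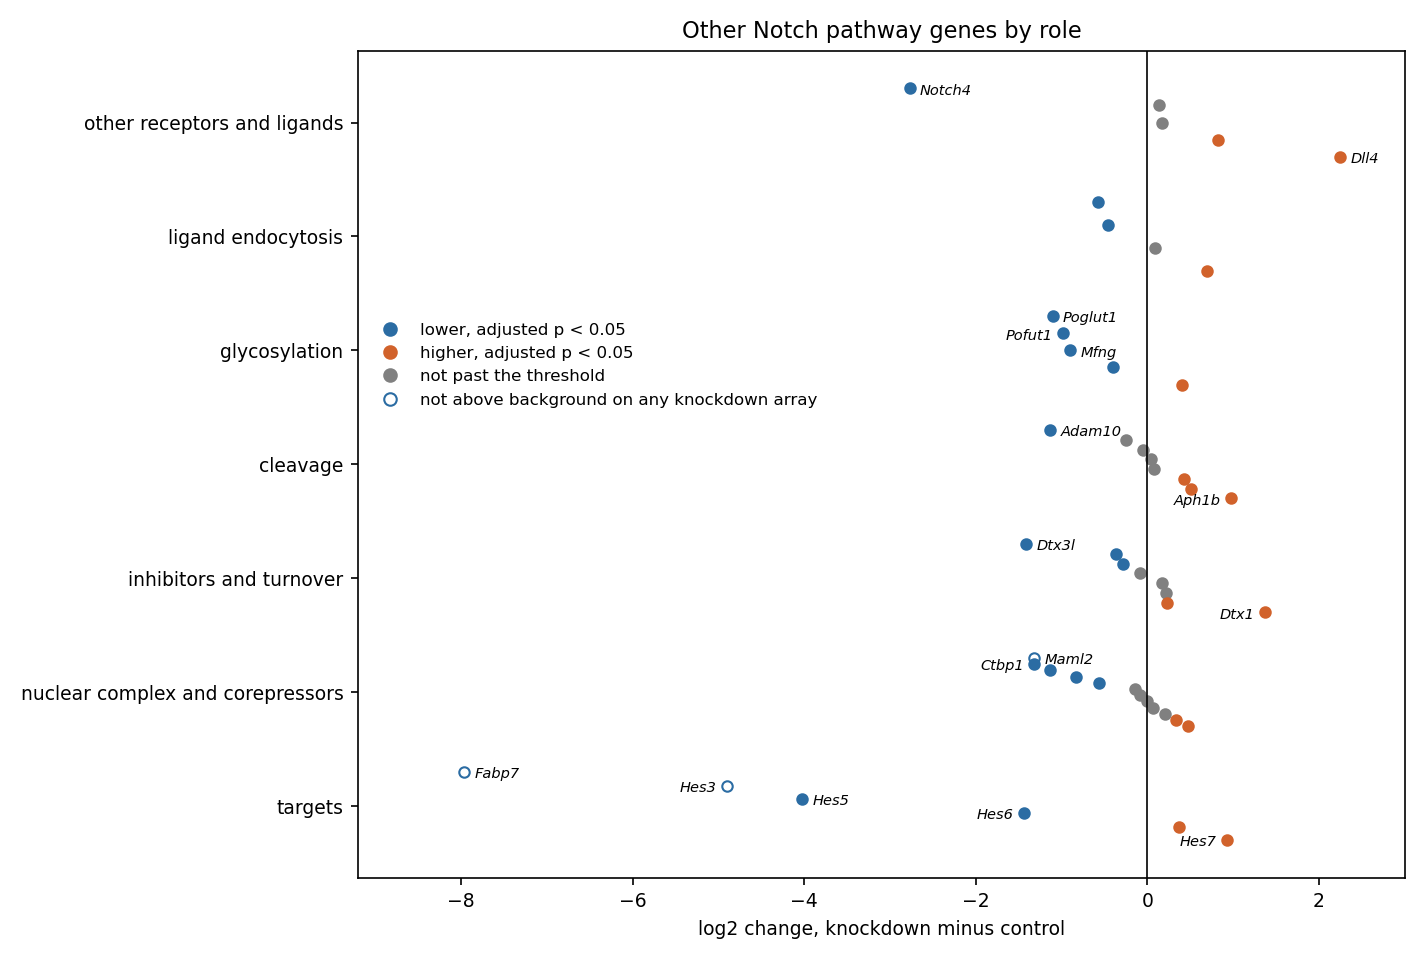
Change of the 48 tested other genes of the Notch pathway (knockdown minus control, log2 units, horizontal axis), grouped by role; blue marks genes called lower, orange genes called higher and grey genes not past the threshold, and open circles mark genes not above background on any knockdown array. The genes listed as targets reach farthest to the left, and 4 of the 5 glycosylation enzymes are lower.

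Marker genes of cell types that express these ligands and receptors moved between the groups too. Their summed signal is given in units of each array's 75th percentile. All 10 neural progenitor markers, which define the labelled cell type, were well above background on every array. Of these 9 fell, and their sum was 128 to 135 in the control arrays and 44.3 to 47.0 in the knockdown arrays. Pax6 was the exception, and its brighter probe changed by -0.24 with overlapping groups (limma adjusted p = 0.101). The dimmer Pax6 probe counted as higher, with a rise of 0.44, although its groups overlapped too (limma adjusted p = 0.0466). Of 9 tested markers of proneural and newly formed neurons, the cells that carry Dll1 and Dll3, 7 fell and Stmn2 rose. Their sum was 9.30 to 10.84 in the control and 10.03 to 10.98 in the knockdown arrays, with a median change of -2.19. Stmn2 alone gave 1.54 to 1.82 of the control and 7.58 to 8.46 of the knockdown sum, and without it the list summed to 7.76 to 9.02 and 2.45 to 2.81.

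Of 7 tested presomitic mesoderm markers, a tissue that also uses Dll1, Dll3, Lfng and Nrarp, 4 rose and 1 fell, with sums of 2.17 to 2.57 and 3.64 to 4.00. Hes7, also on the list of targets above, was the brightest of these, and without it the sums were 1.18 to 1.34 and 1.54 to 1.70. The defining markers T and Msgn1 were each well above background on 1 control array and on no knockdown array. Of 4 tested endothelial markers, 2 rose and 1 fell, with sums of 7.36 to 9.63 and 9.95 to 12.1. The bright probe of Kdr, whose change of 0.17 missed the threshold (limma adjusted p = 0.257), made up most of them, and without it they were 1.05 to 1.19 and 2.16 to 2.42. A dimmer Kdr probe was called lower at -1.34 (limma adjusted p = 2.8e-05). Cdh5, Emcn and Tie1 were not well above background on any array. The part of these marker changes in the changes of the 10 genes was not tested.

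The gene outside the set whose level was most like that of each member over the 8 arrays was looked up among 14638 genes, as a description only. The arrays fall into 2 groups, so any gene with a change between them scores high: between 168 and 2646 genes had a Pearson r above 0.95 for each of the 9 called members, and none had for Notch1. The most alike genes were Wfikkn1 for Dll1, Mat2a for Dtx4, Rbm34 for Notch3, Wdr83os for Dll3 and Rfx2 for Nrarp, all with r above that value. Btd was closest to Jag1 (r = 0.997), Kdf1 to Jag2 (r = 0.997), Wdr90 to Notch2 (r = 0.993) and Lpl to Lfng (r = 0.987). For Notch1 the closest was Ppp3cc (r = 0.905), which itself did not pass the test.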

How the data were processed

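Single-colour Agilent mouse arrays of 4 control and 4 knockdown samples were used. The deposited files hold spot intensity after the scanner software's background subtraction (Feature Extraction 10.7.3.1, per the file headers). The authors' deposited log2 table (median 7.10 on every array, steps not given in the sources used here) served as an alternative. It nearly equalled the values from normexp and quantile normalization (r = 0.99999 on every array), so these 2 alternatives count as 1. Outlier spots were dropped, spots of a probe averaged, and each array's log2 signal centred on its 75th percentile. Probes well above background on all arrays of a group were tested with limma 3.58.1 in R 4.3.3, with 2 groups, no covariate and Benjamini-Hochberg adjustment over 29090 probes. A gene is represented by its brightest tested probe. On simulated data this fit recovered 70 of 100 probes changed by 1 and 93 of 100 changed by 2 on the log2 scale, with 10 false calls. All other simulated probes of the 29090 were unchanged, whereas 57.1% of tested probes were called here. The adjusted threshold depends on that share, so the simulated figures do not carry over to these arrays. The number of arrays limits the precision. Gene names came from RefSeq by accession for 26294 probes, by symbol for 2049 and by synonym for 355, and 26983 kept the file's name.

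The members, the pathway and marker lists and the tests were chosen with earlier results of these data known. All members are named, and of the pathway list up to 3 called genes per role and direction with the largest change. A gene that this rule names is not reported here. Other genes were named after their values were seen. Alternatives covered background correction, normalization, the dim-probe filter, slide and replicate blocks, leaving out arrays, and the authors' values.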

Additional observations from a re-analysis of the deposited data

Results flagged for a closer look

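In 3 cases an array value stood far from the rest of its group, by Dixon's test at the 95% level for 4 samples, among 28 groups checked. Chance alone picks out about 1 in 20 groups. Control array 3 read 1.70 for the brighter Notch2 probe, where the other control arrays read 1.35 to 1.39. It also read 0.99 for the brighter Dll3 probe, where the others read 0.61 to 0.63. Knockdown array 2 read -0.78 for Dll1, where the other knockdown arrays all read -0.85. In each case the array stayed on its own group's side of the other group. The cause was not tested.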

How the results depend on the processing

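Over 21 settings of the test, 9 members were called in all but the median scaling, where Jag2 was lost and 8 were called. The change of Jag2 ranged from 0.46 to 0.77 and passed in 20 of 21 settings, Notch1 passed in 0, and the other 8 genes passed in all 21. The fall of Nrarp was -1.17 with normexp and quantile normalization and with the authors' values. The call count over all genes ranged from 10101 to 13048 and that of the pathway list from 27 to 34. Notch1 turned to 0.14 without the 2 arrays marked TR, a mark the labels do not explain (limma adjusted p = 0.711, an alternative chosen after seeing the data), and was 0.84 within slide 1. Median scaling took the pathway list from 13 to 7 higher. Samples that share a title number did not deviate together (r from -0.19 to 0.11), and with the replicate block 9 members, 32 genes of the pathway list and 11282 of all genes were called. With the slide as a block these were 9, 33 and 13048. Samples of opposite groups on the same slide had r from 0.11 to 0.32. Leaving out an array or averaging the knockdown pairs left the comparisons of gene pairs as values only, since fewer arrays cannot reach the threshold. Dim probes limit Notch1 and the second Notch2 probe.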

Other observations

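Marker lists of cell types outside the neural lineage moved too. All 9 endoderm markers rose. Sox7 and Afp were not well above background on any control array. Gata4 and Cubn were well above it on 3 of the 4 control arrays, so these 4 genes passed the filter on dim probes through the knockdown group, where they are high. Sox7 was at least 2.87-fold and Afp at least 9.24-fold higher. The list had a summed signal of 2.31 to 2.81 in the control and 11.3 to 12.4 in the knockdown arrays, in units of each array's 75th percentile. Of 6 smooth muscle and fibroblast markers 5 rose, with sums of 30.2 to 33.0 and 103 to 129. Notch3 and Jag1 are known to be expressed among such cells. Tagln gave 27.5 to 30.3 of the control and 96.2 to 121.9 of the knockdown sum, and without it the sums were 2.63 to 3.01 and 6.28 to 6.80. Col3a1 did not pass the test, and Acta2 rose by 0.27. Of 6 pluripotency markers 4 fell and 1 rose, with sums of 56.6 to 63.7 and 21.9 to 23.4.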
